A study of Mus musculus with 4 samples.

Results

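The regions described here are narrow stretches of H4K20me1 that were called in a mouse mesenchymal stem cell population and had no called counterpart in a clone derived from it. They were chosen by position: regions of the population list less than 2000 bp wide that shared 0 bp with every region of the clone list, on the 18 chromosomes other than 11 and 13. The choice left 10121 of the 25001 population regions on these chromosomes (28166 over all chromosomes), and they are called narrow absent regions below. "Absent" means not called, since the lists cannot show that the mark was missing.

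The study set the MSC21 population, mesenchymal cells from the bone marrow of C57BL/6 mice grown to confluence in stem cell medium, beside 4L.1.4, a single clone obtained from it. Chromatin immunoprecipitation and sequencing gave 1 H4K20me1 library and 1 serum control library (non-immune, from rabbit) for each culture, 4 libraries in total without replicates. What is analysed here are the 2 deposited lists of region positions in mm9 coordinates, 1 per culture. They carry no score, enrichment or read count, so the depth behind each region is unknown, the markers of mesenchymal cells could not be checked, and the spread between replicate libraries is not known for either culture. Differences are therefore given without a p-value. The 95% intervals are exact and reflect counting error alone; they treat each region as independent, which neighbouring regions are not.

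H4K20me1, monomethylated lysine 20 of histone H4, is laid down by the methyltransferase Kmt5a (also known as Set8) and can be converted to the dimethylated and trimethylated forms by other enzymes. It is known from the bodies of transcribed genes, where it forms broad domains, from the inactive X chromosome, and from chromatin compaction as cells divide. A narrow called region of such a mark can lie at the fringe of a broad domain, in a patchwork of small pieces, or by itself.

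With broad regions taken as 10 kb wide or more, the largest number of narrow absent regions had narrower neighbours alone. A broad region of either list lay within 10 kb of 1746 of them (17.3%, 16.5 to 18.002%). Another 1805 (17.8%, 17.1 to 18.6%) stood alone, with no other region of either list within 10 kb. The remaining 6570 (64.9%, 63.98 to 65.8%) had narrower regions, and no broad one, within that distance. Over all 25001 population regions, 30.4% had another broad region of either list within 10 kb, 59.9% had narrower neighbours alone and 9.66% stood alone. Among unmatched population regions of 2000 bp or more, narrower neighbours alone were found for 64.1% (62.9 to 65.3%), so this kind of surroundings was common throughout the list. The narrow absent regions were therefore below the whole list in the share beside broad regions and above it in the share standing alone. Part of both gaps comes from the choice itself, because population regions that overlap the clone can never stand alone, and those that overlap a broad clone region count as beside one. The unmatched population regions of 2000 bp or more lack clone overlap too. Of these, 26.5% (25.4 to 27.6%) were beside another broad region of either list and 9.41% (8.71 to 10.1%) stood alone. The shares also depend on the limits: with broad regions taken from 5000 or from 20000 bp, 35.4% and 5.64% were beside one, and those with narrower neighbours alone came to 46.8% and 76.5%. With population regions within 1 kb joined beforehand, 5447 narrow absent regions were left, of which 33.2% stood alone and 48.7% had narrower neighbours alone.

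The narrow absent regions measured 381 to 1999 bp, with a median of 1204 bp and quartiles of 1003 and 1528 bp. They made up 40.5% of the population regions but 12.8 Mb, or 10.6%, of the 120.1 Mb that the population list marked on these chromosomes. Of all population regions under 2000 bp, 84.9% were absent from the clone list, against 66.4% of population regions of any width; these shares follow from the rule and are given as a description. The surroundings were also taken by class of width. From the class under 700 bp (208 regions) to the class of 1500 to 1999 bp (2704 regions), the share beside a broad region of either list lay between 16.6% and 18.5%, and the share standing alone between 17.2% and 20.7%. At the edge of the rule, the 210 narrow absent regions of 1950 to 1999 bp lay a median of 24.7 kb from the nearest clone region, and 24.3% of them were beside a broad region. The 173 unmatched regions of 2000 to 2049 bp lay 28.0 kb from the clone list, and 23.7% of them were beside a broad region. On the other side of the rule, 71 narrow absent regions came within 100 bp of a clone region, and 37 narrow regions were left out because they shared 1 to 100 bp with one.

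In the clone list 1958 of 10535 regions (18.6%) were under 2000 bp wide, against 47.7% of population regions. Its narrowest 1% of regions on the same chromosomes ended at 1268 bp, and 5680 of the narrow absent regions (56.1%) were narrower than that, as were 813 of the 1802 narrow population regions that overlapped the clone (45.1%). Under 1000 bp there were 2804 of all population regions (11.2%), 2491 of them narrow absent regions, and 8 clone regions (0.076%). Under 1500 bp there were 8552 population regions (34.2%), 7417 of them narrow absent regions, and 467 clone regions (4.43%). The narrow absent regions were chosen for their width, so the shares of the 2 whole lists are the ones to compare. How the regions were called is not given in the sources used here, and a difference in calling and a difference between the cultures cannot be told apart for regions of this width.

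Neighbours of the narrow absent regions in the population list were somewhat farther off than over the list as a whole. The median distance from a narrow absent region to the nearest other population region was 1.21 kb (1.14 to 1.27 kb), with quartiles of 265 bp and 5.66 kb, against a median of 806 bp (774 to 833 bp) over all population regions. Within 1 kb 4713 of them (46.6%) had such a neighbour and within 10 kb 8261 (81.6%), against 53.8% and 85.3% over all population regions. Neighbours on both sides within 10 kb were found for 4537 (44.8%), a share that was not taken for other kinds of population region. Clone regions lay farther off, at a median of 30.8 kb (29.3 to 32.5 kb) with quartiles of 7.69 and 110.2 kb. This distance could not be 0, because overlap with the clone was excluded by the rule.

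**Figure D1:**
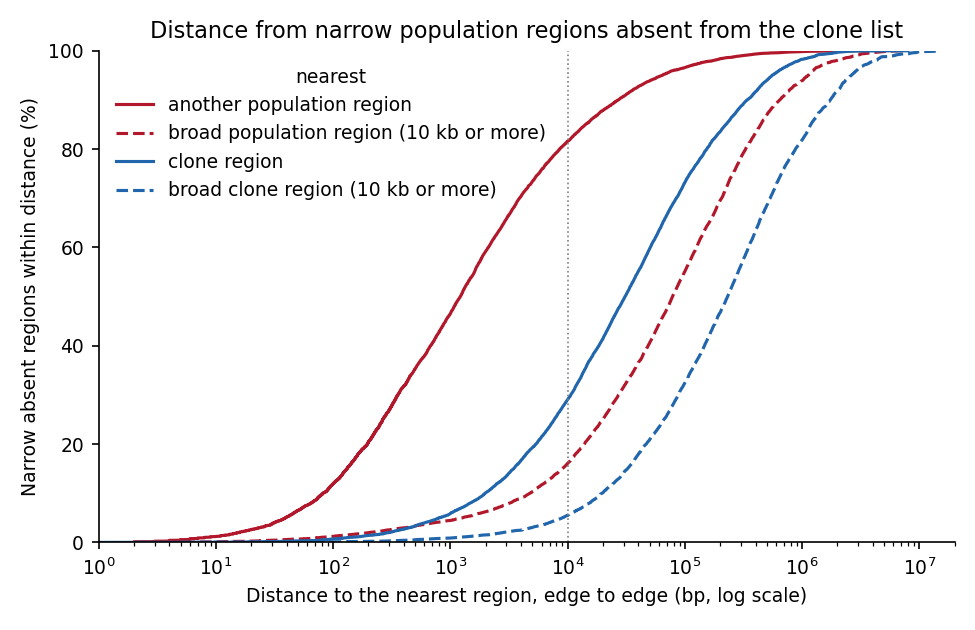
Cumulative share of the 10121 narrow absent regions (vertical axis, percent) by edge-to-edge distance to the nearest region of each kind (horizontal axis, bp, log scale), with the dotted line at 10 kb. At that line 81.6% had another population region, 29.1% a clone region, 16.1% a broad population region and 5.52% a broad clone region.

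Compared with other parts of the population list, the narrow absent regions were more loosely placed. Population regions under 2000 bp that did overlap the clone (1802 regions) lay a median of 606 bp (528 to 680 bp) from the nearest other population region. Unmatched population regions of 2000 bp or more (6481 regions) lay a median of 498 bp (465 to 533 bp) from it. No other population region came within 10 kb of 18.4% of the narrow absent regions, 10.7% of the narrow shared regions and 9.75% of the wider unmatched regions. The exact intervals were 17.6 to 19.1%, 9.27 to 12.2% and 9.04 to 10.5%, in that order. They treat neighbouring regions as independent and cannot serve as a test of the difference. The narrow shared regions were set apart by clone overlap, so part of the gap to them can come from the rule. The wider unmatched regions lack clone overlap, as the narrow absent regions do, but differ in width. From the clone list the wider unmatched regions lay a median of 29.4 kb (27.7 to 31.1 kb), against 30.8 kb (29.3 to 32.5 kb) for the narrow absent regions.

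The kind of nearest population region differed too. For 5195 narrow absent regions (51.3%) it was another narrow absent region, a kind that made up 40.5% of the list. A region from 2000 bp up to 10 kb was nearest for 3744 (37.0%, against 40.3% of the list), a broad region for 872 (8.62%, against 12.0%), and a narrow region shared with the clone for 310 (3.06%, against 7.21%). Among the narrow shared regions the order was different: 32.3% had another narrow shared region as the nearest, and 13.9% a narrow absent one. Narrow regions of each kind thus had neighbours of their own kind more often than the list's composition, a description of the same clone overlap that chose them.

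The question of flanks was next taken list by list. The population list had 2999 broad regions on these chromosomes, with a median width of 16.5 kb, and the clone list 1790, with a median of 15.0 kb. A broad population region lay within 10 kb of 1630 narrow absent regions (16.1%, 15.4 to 16.8%), against 21.8% over all population regions. The share was 24.3% (22.3 to 26.3%) for the narrow shared regions and 25.5% (24.5 to 26.6%) for the wider unmatched regions. Narrow shared regions were set apart by clone overlap, and 2341 of the 2999 broad population regions overlapped the clone. Part of the gap to the narrow shared regions can therefore come from the rule. A broad clone region lay within 10 kb of 559 (5.52%, 5.09 to 5.99%). The share was 5.94% (5.38 to 6.54%) among the wider unmatched regions, and 17.3% over all population regions, which include those that overlap such a region. Broad regions of both lists lay that close to 443 narrow absent regions, of the population list alone to 1187, and of the clone list alone to 116. The last of these came to 1.15% (0.948 to 1.37%), against 0.957% (0.734 to 1.22%) of the wider unmatched regions. Over all population regions it was 8.6%, which again includes those that overlap a broad clone region.

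Of the 1630 narrow absent regions near a broad population region, 920 (56.4%) were its immediate neighbour, with no other population region between them. In 33 cases a broad population region was the immediate neighbour on both sides within 10 kb. Immediate neighbours were not counted in this way for other kinds of population region. Seen from the domains, 1158 of the 2999 broad population regions (38.6%) had at least 1 narrow absent region within 10 kb. This share was 36.1% (34.1 to 38.1%) of the 2341 broad population regions that overlapped the clone and 47.6% (43.7 to 51.5%) of the 658 that did not. Overlap with the clone both split these domains and left narrow regions out of the choice. Part of this gap can therefore come from the rule, and the gap is given as a description. In number, 1158 narrow absent regions lay near broad domains shared with the clone, 499 near broad domains that the clone list lacked, and 27 of these near both kinds.

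The 116 narrow absent regions that flanked a broad clone region alone lay beside 93 such regions. Population regions overlapped 86 of these 93, and in 26 the overlapping population region was itself broad but ended farther than 10 kb from the narrow absent region. At the other 60 of the 86 the population list had narrower regions overlapping the clone domain and no broad one. More generally, where a clone region lay within 10 kb of a narrow absent region (2942 cases), the nearest clone region overlapped some population region in 2725 cases (92.6%, 91.6 to 93.5%). These cases count narrow absent regions, so that a clone region can be counted more than once, and the value is not comparable with a share of clone regions. Clone regions lay within 10 kb on both sides of 547 narrow absent regions (5.40%). As the rule excluded overlap, these lay in gaps of the clone list by construction. Other unmatched population regions were not counted in this way.

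Per base of sequence, the density of narrow absent regions fell with distance from other regions, broad or not. Outside the other regions of both lists, 2199 Mb of sequence was available between the first and last region of each chromosome, and it held 4.60 narrow absent regions per Mb. In the first 1 kb from the edge of a broad population region the density was 105.2 per Mb, at 1 to 2 kb it was 46.9, at 5 to 10 kb 30.4, at 20 to 50 kb 13.99, and beyond 100 kb 2.46. Next to population regions of 2000 bp up to 10 kb it was higher in the first 1 kb, at 153.4 per Mb, and lower at 5 to 10 kb, at 26.9. Broad domains were therefore not the densest surroundings at close range. From broad clone regions the density went from 45.2 per Mb in the first 1 kb to 21.98 at 5 to 10 kb and 3.46 beyond 100 kb. From the edge of any clone region the density went from 63.3 per Mb to 24.1 and 1.64 over the same distances. The sequence within 10 kb of a broad population region was 1.75% of what was available and held 16.1% of the narrow absent regions, and the sequence within 10 kb of a population region of 2000 bp up to 10 kb was 4.57% and held 55.2%. The densities around population regions describe how regions of one list cluster, and those around clone regions how the lists lie relative to each other. None of them was compared with placed regions.

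**Figure D2:**
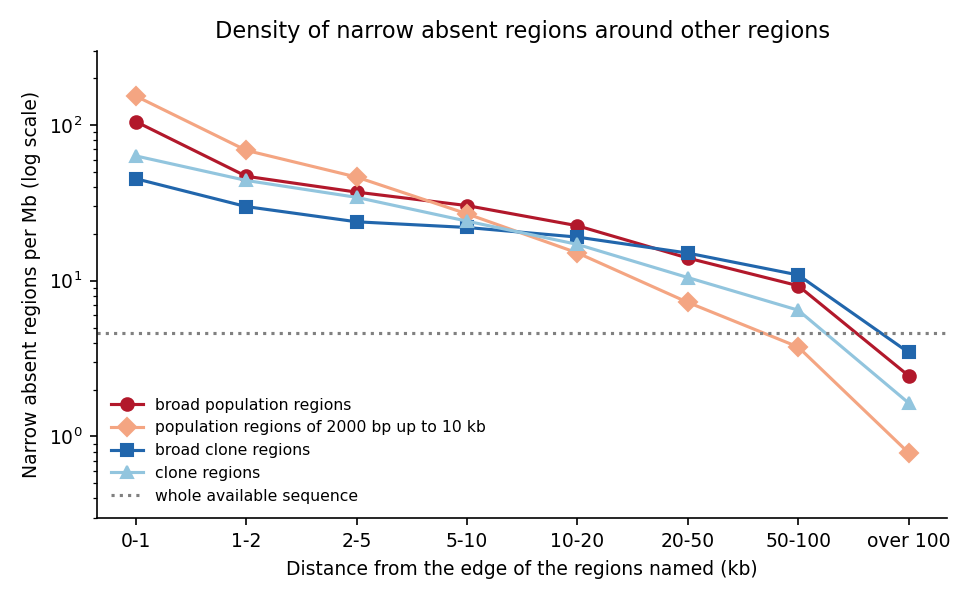
Narrow absent regions per Mb of sequence outside the other regions of both lists (vertical axis, log scale) by distance from the edges of broad population regions, population regions of 2000 bp up to 10 kb, broad clone regions and clone regions of any width (horizontal axis, kb). Each line falls with distance, from 105.2, 153.4, 45.2 and 63.3 per Mb in the first 1 kb to 2.46, 0.785, 3.46 and 1.64 beyond 100 kb, and the dotted line marks 4.60 per Mb over the whole available sequence.

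Neighbouring population regions were also joined. A population neighbour within 1 kb, which decides whether a region is joined at that distance, was less frequent among the narrow absent regions (46.6%) than among the wider unmatched regions (61.2%). Whether joined neighbours are pieces of one domain was not tested. When regions within 1 kb were joined, 5488 narrow absent regions (54.2%) stayed in a stretch under 2000 bp, and 4633 (45.8%) became part of a wider one. Of the latter, 1523 came into stretches of 10 kb or more, and 754 of the 10121 shared a stretch with a broad region. Joining brought 1261 (12.5%) into a stretch that held a region shared with the clone. The other 8860 (87.5%) were in stretches without any, of which 3452 had been joined with a neighbour. The remaining 5408 had no neighbour to join and lacked a shared region by the rule. These shares were not taken for other kinds of population region, so they are a description of the narrow absent regions alone. With regions within 10 kb joined, 4165 (41.2%) were in a stretch with a shared region and 5956 (58.8%) were not. Of these 5956, 4096 had been joined with a neighbour and 1860 had not.

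Narrow absent regions often followed one another without any other population region in between. With a gap of at most 10 kb allowed, they formed 6809 runs, of which 2034 held 2 or more and together contained 5346 regions (52.8%). Runs of 5 or more numbered 141 and held 813 regions (8.03%). Narrow absent regions made up 40.5% of the population list, and 81.6% of them had another population region within 10 kb. Runs of other kinds of region were not counted, so whether these shares are particular to narrow absent regions was not tested. The longest runs held 10 regions and lay on chromosome 1 (127713038 to 127739654), chromosome 16 (42965160 to 43007871), chromosome 2 (18242777 to 18268078) and chromosome 7 (99387991 to 99426361). The fifth longest held 9 regions, on chromosome 8 (85697509 to 85717711). These 5 runs spanned 20.2 to 42.7 kb, of which the population marked 10.4 to 13.3 kb. As their members were chosen for lacking a clone counterpart, clone regions could lie only in the gaps of these runs. None did, the nearest being 30.7 kb away for the run on chromosome 2 and between 237.1 and 367.9 kb away for the other 4.

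At the scale of 1 Mb, 1505 of 2333 bins (64.5%) held a narrow absent region, with a median of 5 in these bins, and 60 bins with 20 or more held 15.1% of them. The fullest bin, on chromosome 9 from 68000001 to 69000000, held 49 narrow absent regions among 75 population regions that marked 177.6 kb, and the nearest clone region was 306.3 kb away. The next was on chromosome 14 (122000001 to 123000000), with 46 of 74 population regions, 165.4 kb marked in the population and 44.6 kb in the clone. Bins on chromosome 7 (99000001 to 100000000, 39 of 53 regions, and 104000001 to 105000000, 37 of 54) and on chromosome 14 (19000001 to 20000000, 38 of 59) followed. In these 3 the population marked 101.8, 175.9 and 192.9 kb and the clone 27.6, 28.6 and 53.1 kb. The bins were picked for regions without a clone counterpart, so their low clone values follow from the choice.

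The stretches with the most narrow absent regions, obtained by joining population regions within 10 kb and picked after their values were seen, show how such places look. On chromosome 14 (122587159 to 122706546, 119.4 kb) 29 of 40 population regions were narrow absent ones, the widest population region was 3905 bp, and the nearest clone region was 55.6 kb away. On chromosome 1 (127637262 to 127766113, 128.9 kb) they were 23 of 34, with a widest region of 5368 bp. On chromosome 7 (99337818 to 99434086, 96.3 kb) they were 22 of 26, with a widest region of 3579 bp. These 3 stretches held neither a broad region nor a clone region. On chromosome 9 (68608529 to 68802007, 193.5 kb) 23 narrow absent regions lay among 45 population regions, the widest of 12644 bp, again without a clone region. On chromosome 8 (94003149 to 94189772, 186.6 kb) 19 of 36 were narrow absent regions, and 12 clone regions marked 42.4 kb between them.

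**Figure D3:**
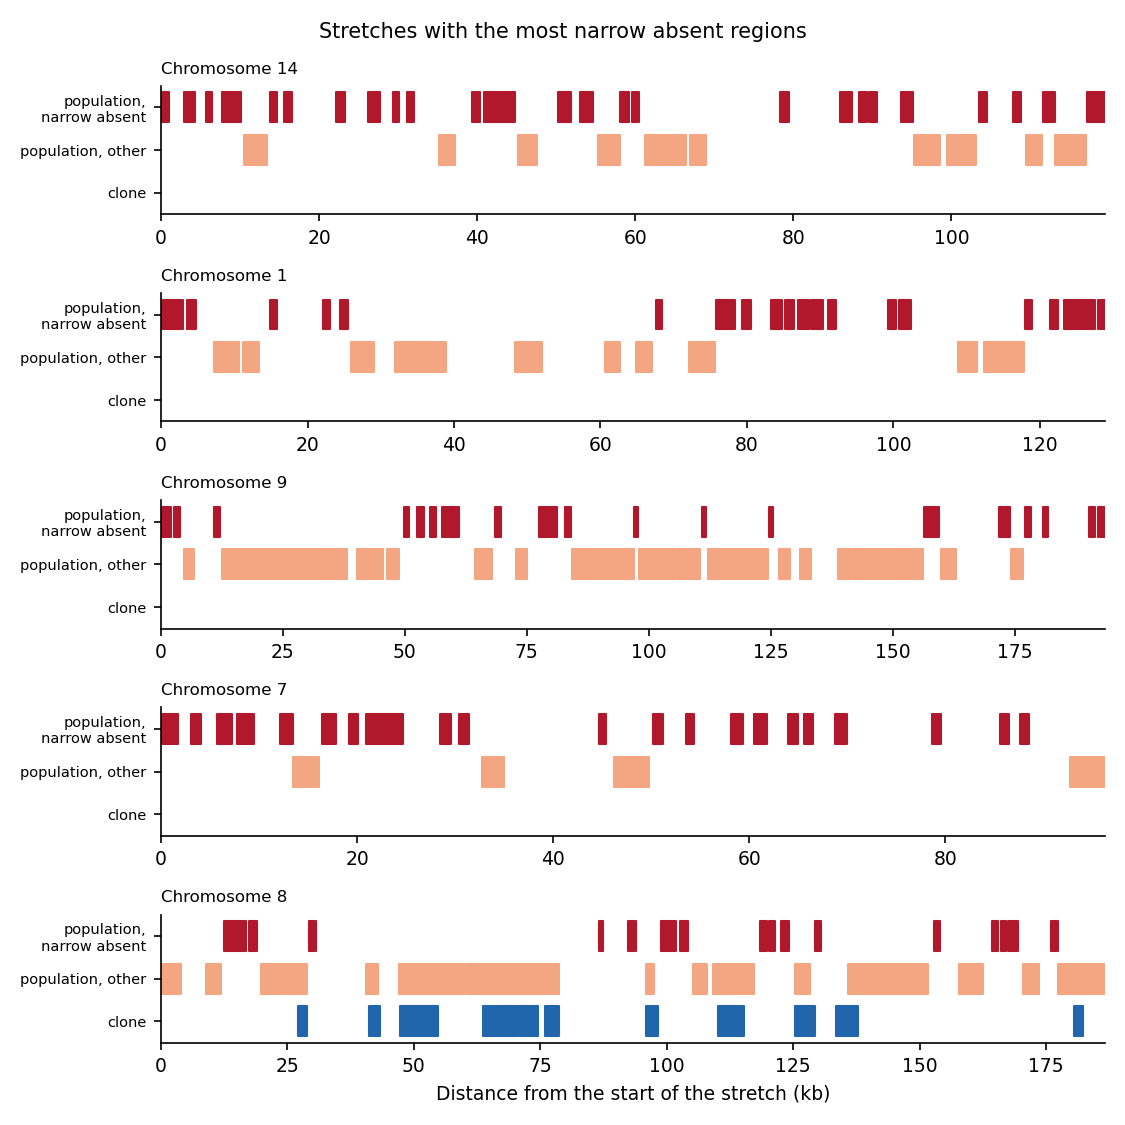
Maps of the 5 stretches with the most narrow absent regions, with distance from the start of each stretch on the horizontal axis (kb) and rows for narrow absent regions, other population regions and clone regions. Clone regions appear in the stretch on chromosome 8 and in none of the other 4, and the numbers of narrow absent regions are 29, 23, 23, 22 and 19 from top to bottom.

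Regions standing alone formed the other end of the range. The 1805 of them had a median width of 1209 bp, close to the 1210 bp of those beside broad regions and the 1200 bp of those beside narrower regions. Their nearest population region lay a median of 30.8 kb away (quartiles 16.5 and 70.4 kb) and their nearest clone region 75.7 kb away (quartiles 34.4 and 219.1 kb). For 322 (3.18% of all narrow absent regions) no region of either list came within 100 kb, and for 17 none came within 1 Mb. The share at 100 kb was 1.05% among the wider unmatched regions. It was 1.56% over all population regions, which include those that overlap the clone. The most isolated, on chromosome 5 (58111677 to 58113259, 1583 bp wide), was 3.60 Mb from the nearest region of either list. It was followed by regions on chromosome 19 (50677808 to 50679205, 2.40 Mb), chromosome 14 (90009768 to 90010844, 2.11 Mb), chromosome 4 (111402585 to 111403688, 1.90 Mb) and chromosome 1 (149898682 to 149899890, 1.85 Mb). For each of these 5 the nearest region belonged to the population list, and the nearest clone region was between 2.02 and 3.65 Mb away.

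The 5 narrowest members each had another population region within 2 kb, although in the class under 700 bp as a whole 20.7% stood alone. The narrowest, 381 bp on chromosome 8 (19790718 to 19791098), lay 234 bp from another population region and 1269 bp from a clone region. The next, of 386 bp on chromosome 2 (14004502 to 14004887), lay 244 bp from the fourth narrowest, of 399 bp (14005132 to 14005530). These 2 lay 3049 and 2406 bp from a clone region, and a broad population region was 2.98 and 2.34 kb away. The third, of 394 bp on chromosome 1 (30912356 to 30912749), lay near broad regions of both lists, 1635 bp from one of the population and 1654 bp from one of the clone. The fifth, of 418 bp (19887663 to 19888080), was again on chromosome 8, 1974 bp from a clone region. Counted after these positions had been seen, 6 of the 50 narrowest members (up to 638 bp) fell in the bin of chromosome 8 from 19000001 to 20000000, where the clone list also had narrow regions, 9 with a median width of 1417 bp and the narrowest 499 bp. Another 4 of the 50 fell in the bin of chromosome 2 from 14000001 to 15000000.

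Across the 17 autosomes used, the shares of the 3 kinds of surroundings differed between chromosomes. The share beside a broad region of either list ranged from 13.2% on chromosome 7 to 21.0% on chromosome 5 (median 17.8%), and the share standing alone from 13.9% on chromosome 14 to 23.0% on chromosome 6 (median 16.4%). On each chromosome, X included, regions beside narrower ones alone were the most numerous kind, with 59.2% to 69.0% on the autosomes. The X chromosome lay outside the autosomal range in both other shares: 52 of its 472 narrow absent regions (11.02%) were beside a broad region and 116 (24.6%) stood alone. All population regions of the X chromosome showed the same displacement, with 18.9% beside another broad region, below the lowest autosome (25.1%), and 15.8% alone, above the highest (11.9%). The narrow absent regions of the X chromosome also lay farthest from the clone list, at a median of 93.3 kb against 14.7 kb (chromosome 8) to 65.7 kb (chromosome 3) on the autosomes. This distance depends on how much of a chromosome the clone list marks. It was not set beside other population regions of the X chromosome.

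**Figure D4:**
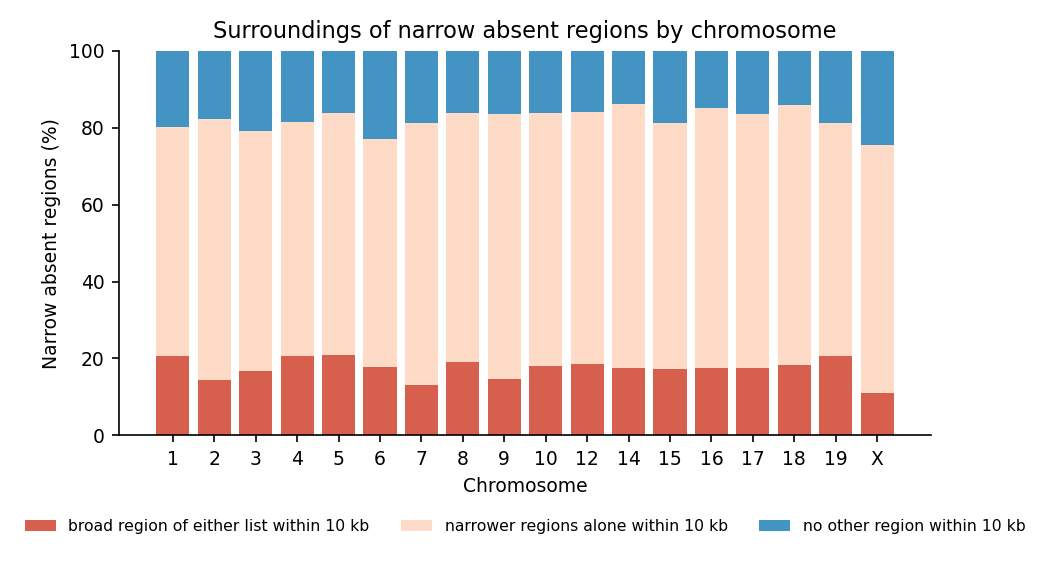
Share of the narrow absent regions of each chromosome (bars, percent, 1 bar per chromosome) with a broad region of either list within 10 kb, with narrower regions alone within 10 kb, and with no other region within 10 kb. The middle kind is the largest on each of the 18 chromosomes, and the X chromosome has the smallest share beside broad regions (11.02%) and the largest standing alone (24.6%).

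Chromosomes also differed in the number and width of narrow absent regions. They numbered 2.92 per Mb on chromosome 6, 2.97 on X and 6.69 on chromosome 9. They made up 28.9% of the population regions of chromosome 6, 31.3% on chromosome 17 and 32.6% on chromosome 5, but 47.9% on chromosome 9, 48.4% on chromosome 16 and 52.8% on X. Their median width ran from 1091 bp on chromosome 12 and 1096 bp on chromosome 18 to 1346 bp on chromosome 17, 1364 bp on chromosome 6 and 1410 bp on chromosome 19. Chromosomes with narrower members tended to have a larger share of them (Pearson r = -0.76, Spearman rho = -0.78 over 18 chromosomes). This is a description, because both values come from the widths of the same list.

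The lower end of the widths moved with the chromosome as well. The narrowest 5% of the whole population list ended at 764 bp on chromosome 12 and at 1046 bp on chromosome 6, and in the clone list at 1412 bp on chromosome 12 and 1799 bp on chromosome 6. Over the 18 chromosomes the clone's value and the median width of the narrow absent regions had a Pearson r of 0.53 and a Spearman rho of 0.53. Chromosome 19 went the other way, with the widest narrow absent regions and a clone value of 1452 bp, below the autosomal median of 1505 bp. The part of the calling in these differences was not tested.

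**Figure D5:**
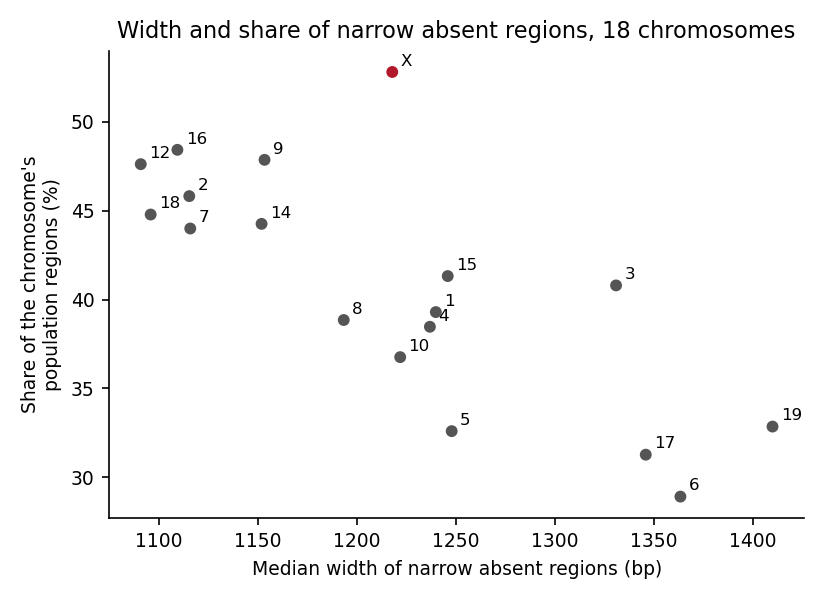
Median width of the narrow absent regions of a chromosome (horizontal axis, bp) against their share of its population regions (vertical axis, percent), 1 point per chromosome and X in red. The points fall from chromosomes 12 and 16 (1091 and 1110 bp) at the upper left to chromosomes 6 and 19 (1364 and 1410 bp) at the lower right, and X lies above the others at 52.8%.

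The share of narrow population regions that the clone list lacked also differed between chromosomes, as the rule itself would show it. It was 74.6% on chromosome 5 and 75.5% on chromosome 8, and 94.4% on X and 95.8% on chromosome 3. Chromosomes with larger shares had longer median distances from their narrow absent regions to the clone list (Pearson r = 0.83, Spearman rho = 0.87 over 18 chromosomes). Both values depend on how much of the chromosome the clone list marks, and they are not independent.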

How the data were processed

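The data were 2 lists of H4K20me1 regions, deposited by the authors as chromosome, start and end positions without scores. Per the submitters' processing notes the tools were CASAVA 1.8.1 and Bowtie and the build mm9. Which program called the regions, how it was set, and whether serum reads served as its control is not given in the sources used here. Each list was assigned to the H4K20me1 library of the culture in its name. Starts were read as counted from 0 and are printed counted from 1.

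Members and limits were chosen with earlier results of these data known. Distances were taken edge to edge with Python 3.11.15, numpy 2.4.6, pandas 2.3.3 and scipy 1.17.1, and figures drawn with matplotlib 3.10.9. A broad region is at least 10000 bp wide, and a region stands alone with no other region within 10000 bp. Shares have exact Clopper-Pearson 95% intervals and medians exact order-statistic 95% intervals. No test was run, with 1 library per group. The distance function was tested on simulated data, where 0 of 10026 distances differed from a direct count. Single regions were named by rule: the 5 narrowest, the 5 farthest from any region, the 5 longest runs and the 5 fullest bins of 1 Mb. The gene and promoter tables at hand are of GRCm38.p6, not mm9, so genes and sequences were not used here. Chromosomes 11 and 13 lie outside the rule.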

Additional observations from a re-analysis of the deposited data

How the results depend on the processing

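Of 30 recomputed values, 14 stayed within 1.5 times (counts) or the exact interval (shares and medians) and 16 did not. The number of narrow absent regions fell to 5447 when population regions within 1000 bp were joined first, which removes pieces by construction. It lay between 7417 and 12751 under the other settings. The share beside a broad region of either list was 18.4% with a width limit of 3000 bp, 15.9% at least 1000 bp from the clone and 18.1% after joining. It was 11.1% and 26.6% with distance limits of 5000 and 20000 bp, and 35.4% and 5.64% with broad regions from 5000 and 20000 bp. The share standing alone was 16.3% with the width limit of 3000 bp, 18.95% at least 1000 bp from the clone, 33.2% after joining, and 25.9% and 11.6% with limits of 5000 and 20000 bp. The median distance to the clone was 35.9 kb at least 1000 bp from it, 29.2 kb on autosomes alone and 39.8 kb after joining. Including chromosomes 11 and 13 left all 4 values within their limits. The unknown depth limits every statement on absence. Stricter calls could not be run without scores. No paired analysis was possible because a single library stood for each group.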
